A study of Mus musculus with 8 samples.

Results

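Glycolysis and hypoxia response genes were examined in sorted liver endothelial cells of mice that carried transplanted, labelled marrow. The set of 36 genes was listed by name and covers glucose and lactate transporters, the enzymes of glycolysis, the oxygen-sensing machinery and classical hypoxia-induced genes. Of these, 35 were measured by a probe set that carried their symbol alone, among 21160 genes tested. The probe set of Pfkfb2 also carried the symbol of a pseudogene, C4bp-ps1, and was left out of the counts. Egln3 had 2 probe sets, of which the brighter was used, as for every gene. No threshold on brightness was applied. The genes were listed by name, but with earlier results of these data known, so their calls are no independent evidence.

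The recipients were wild-type C57BL\6N mice, 8 weeks old, given 9 Gy of radiation as 2 doses of 4.5 Gy and, 2 h later, 5000 YFP-labelled LSK cells into a vein. LSK cells are the marrow fraction that is low in lineage markers and positive for Sca-1 and Kit, and that holds blood stem and progenitor cells. About 1 month later, liver cells that lacked CD45 and carried CD31 and CD146 were sorted and divided into a YFP+ group, of marrow origin, and a YFP- group, resident in the liver, with 4 arrays each. Both groups thus came from irradiated, transplanted mice, and no array of untreated liver is among the 8; what drives YFP, and whether animals were pooled, is not stated in the labels used here. The single comparison, YFP+ against YFP-, asks how the transcripts of marrow-derived endothelial cells differ from those of the resident ones.

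Glycolysis converts glucose to pyruvate in the cytosol and yields ATP without oxygen. Endothelial cells are known to draw much of their ATP from it, as activated leukocytes and platelets do. Many of its steps are catalysed by isoforms encoded by different genes, whose balance differs between tissues. When oxygen is short, the factors HIF-1alpha (Hif1a) and HIF-2alpha (Epas1) escape hydroxylation by the EGLN enzymes and destruction through VHL. HIF-1alpha in particular then raises transcription of most glycolytic genes. Genes such as Bnip3, Ndrg1, Adm and Ankrd37 are also induced.

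Values are log2 of the deposited normalized intensities, and a difference is the YFP+ minus the YFP- mean. Intensities of different genes depend on their probes and are not set against each other. A signal was taken as above background where it exceeded the 95th percentile of the array's negative control entries, which lay at log2 values of 8.98 to 9.10 on the YFP- and 8.73 to 9.04 on the YFP+ arrays. By that measure 7 of the 35 genes were above background on all 8 arrays and 18 on none, so differences of the dimmer genes are compressed and no fold is given where both groups lie in the background. YFP+ replicate 3 stood apart, with a mean correlation of 0.901 to its group against 0.930 to 0.941 for the other YFP+ arrays and 0.962 to 0.969 for the YFP- arrays. All 13 measured pan-endothelial markers were above background on every array of both groups, and all 13 differences were negative. Over all 8 arrays Pecam1 (CD31) read 11.36 to 11.72 and Mcam (CD146) 8.85 to 10.26. The lowest Mcam value was on a YFP+ array, near the threshold.

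Genes of both glucose carriers and of single glycolytic enzymes rose in YFP+ cells, while no oxygen-sensing or hypoxia response gene of the set passed the test. Small changes would mostly have been missed, since 16% of log2 changes of 0.5 were called in simulated data. With the threshold set at a limma p of 0.05 after Benjamini-Hochberg adjustment over all genes, 4 of the 35 genes rose: the glucose transporter genes Slc2a1 and Slc2a3, the phosphofructokinase gene Pfkp and the triosephosphate isomerase gene Tpi1. Among all genes 1.27% were called higher. None of the 35 was called lower (background 0.336%), and none of the negative differences had an unadjusted p under 0.05, whereas 9 of the positive ones did; over all genes and both directions that share was 13.5%. The groups did not overlap for 6 of the 35 genes, the 4 called ones, Aldoa and Eno1, against 8.62% of all genes. The median difference was 0.16 over the 35 genes and 0.002 over all genes, and 24 of the 35 differences were positive. For the 7 genes above background on all arrays the median was 0.02, against -0.08 over all 2014 such genes. In sorted populations, more cells of one type and more RNA per cell cannot be told apart.

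**Figure D1:**
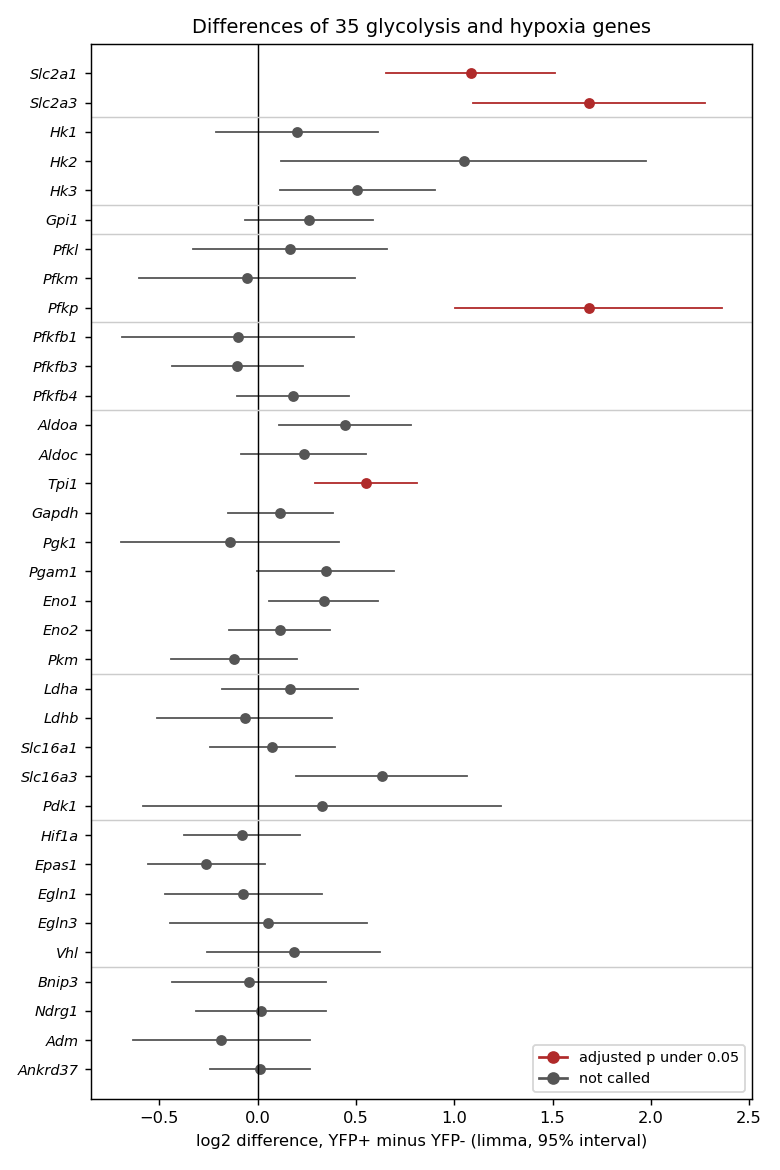
Log2 difference, YFP+ minus YFP-, of each of the 35 genes (points) with limma's 95% interval (lines), ordered by role from glucose uptake at the top to hypoxia response at the bottom, with grey lines between roles. The 4 called genes, in red, are Slc2a1, Slc2a3, Pfkp and Tpi1; intervals of all oxygen-sensing and hypoxia response genes in the lower part include 0.

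The calls depended on single arrays. The number of called genes among the 35 was 1, 0, 1 and 2 without YFP- replicates 1 to 4, and 1, 3, 5 and 1 without YFP+ replicates 1 to 4, while the count over all genes moved from 340 to values between 115 and 636. It was 1 after each array's negative control median was subtracted, and 1 of the 11 genes left when dim genes were removed.

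Slc2a1 encodes GLUT1, the widespread basal glucose carrier of endothelium, red cells and proliferating cells. It read 8.32, 8.34, 8.37 and 9.16 on YFP- replicates 1 to 4 and 9.66, 9.67, 9.42 and 9.78 on YFP+ replicates 1 to 4. The YFP+ arrays were tightly grouped and all lay above background, whereas YFP- replicate 4 stood well above the other resident arrays and was the 1 resident array above background. The difference was 1.08 (SE 0.19, limma adjusted p = 0.0264), with a 95% interval of 0.65 to 1.51. Without YFP- replicate 4 the difference was 1.29 (limma adjusted p = 0.00664). Without YFP- replicates 1, 2 or 3 the limma adjusted p was 0.0847, 0.101 and 0.0863, and without YFP+ replicates 1, 2 or 4 it was 0.0711, 0.0505 and 0.0722. After subtraction of each array's negative control median it was 0.0929.

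Slc2a3 encodes GLUT3, a carrier of high affinity known from neurons, platelets and leukocytes. It read 6.23, 6.46, 6.70 and 6.60 on the YFP- and 8.17, 8.51, 8.72 and 7.33 on the YFP+ replicates. The groups did not overlap, although YFP+ replicate 4 lay much closer to the resident arrays than the rest. The difference was 1.69 (SE 0.27, 95% interval 1.09 to 2.28, limma adjusted p = 0.0144). No array of either group was above the background threshold. The call was lost without YFP- replicate 1 or 2 (limma adjusted p = 0.0560 and 0.0570) and after subtraction of the negative control median (0.0856).

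The carriers followed different arrays: among YFP+ arrays Slc2a1 was highest on replicate 4, where Slc2a3 was lowest, and lowest on replicate 3, where Slc2a3 was highest. Whether one carrier changed more than the other was tested on the per-array difference between their log2 values. Slc2a3 relative to Slc2a1 was 0.60 higher in YFP+ cells (SE 0.42), which did not pass (exact permutation test, two-sided, p = 0.200, adjusted p = 0.375 over 15 isoform pairs). The other measured carrier genes of the family gave Slc2a6, a carrier of lysosomal membranes in macrophages, with a difference of 1.72 (limma adjusted p = 0.0261), and Slc2a2, the GLUT2 of hepatocytes, with 1.39 (limma adjusted p = 0.0736).

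Hexokinases trap glucose in the cell as glucose 6-phosphate. None of the 3 was called, and 2 had an unadjusted p under 0.05 (limma), as 13.5% of all genes did. Hk1, the broadly expressed isoform, had a difference of 0.20 (95% interval -0.21 to 0.61). Hk2, the inducible isoform of muscle and activated cells, read 6.81, 6.60, 6.50 and 6.67 on the YFP- and 7.26, 8.98, 6.52 and 8.01 on the YFP+ replicates. YFP+ replicate 3 lay within the resident range, and replicate 2 was far higher than the rest, so that the difference of 1.05 had a wide interval, 0.12 to 1.98 (limma adjusted p = 0.296). Without YFP+ replicate 3 it was 1.44 (limma adjusted p = 0.0460). Hk3, the isoform of myeloid cells, read 7.66, 7.93, 8.04 and 7.82 on the YFP- and 7.86, 8.56, 8.64 and 8.44 on the YFP+ replicates, a difference of 0.51 (limma adjusted p = 0.218). Here the YFP+ array within the resident range was replicate 1. The pairwise contrasts of the hexokinases gave exact p-values of 0.114 for Hk2 relative to Hk1, 0.171 for Hk3 relative to Hk1 and 0.400 for Hk3 relative to Hk2.

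Gpi1, the isomerase that makes fructose 6-phosphate, had a difference of 0.26 (95% interval -0.07 to 0.59, limma adjusted p = 0.507).

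Phosphofructokinase commits the sugar to glycolysis, and its isoforms are named for liver (Pfkl), muscle (Pfkm) and platelet (Pfkp). Pfkp read 8.29, 7.22, 7.76 and 8.09 on the YFP- and 9.28, 10.37, 9.00 and 9.45 on the YFP+ replicates. All YFP+ arrays lay above all resident ones, with replicate 2 the highest. The difference was 1.68 (SE 0.30, 95% interval 1.01 to 2.36, limma adjusted p = 0.0283). As no resident array exceeded the background, it is given as at least 1.38-fold higher, measured from the lowest signal above background on each resident array. The call ended without YFP- replicates 2, 3 or 4 (limma adjusted p = 0.0835, 0.0863 and 0.0651) and without YFP+ replicates 1 or 4 (0.0586 and 0.0659). It also ended after each array's negative control median was subtracted (0.177) and with same-numbered arrays treated as blocks (0.0788).

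The other phosphofructokinase genes were not called. Pfkl read 8.01, 7.19, 7.31 and 7.52 on the YFP- and 7.88, 7.97, 7.14 and 7.70 on the YFP+ replicates, with groups that overlapped throughout and a difference of 0.16 (95% interval -0.33 to 0.66). Pfkm read 8.22, 7.65, 7.87 and 8.29 on the YFP- and 8.32, 8.30, 7.22 and 7.98 on the YFP+ replicates, a difference of -0.05 (95% interval -0.61 to 0.50) that turned positive without YFP- replicate 1 or 4 or YFP+ replicate 3. Both genes were below background on all 8 arrays, as Pfkp was on the YFP- arrays, so a change of theirs within the background may not have been seen and the contrasts below compare signals, not isoform amounts. Relative to Pfkl, Pfkp was 1.52 higher in YFP+ cells (SE 0.24), with per-array values of 0.03 to 0.57 in YFP- and 1.41 to 2.40 in YFP+ cells. Relative to Pfkm it was 1.74 higher (SE 0.26). The groups did not overlap in either contrast, and each had an exact p = 0.0286, the smallest that 4 arrays against 4 allow (two-sided permutation test). With 15 pairs compared, the adjusted p was 0.214, and at least 9 pairs would have had to reach the smallest p for any to pass at 0.05. Pfkm relative to Pfkl differed by -0.22 (SE 0.14, exact p = 0.171).

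**Figure D2:**
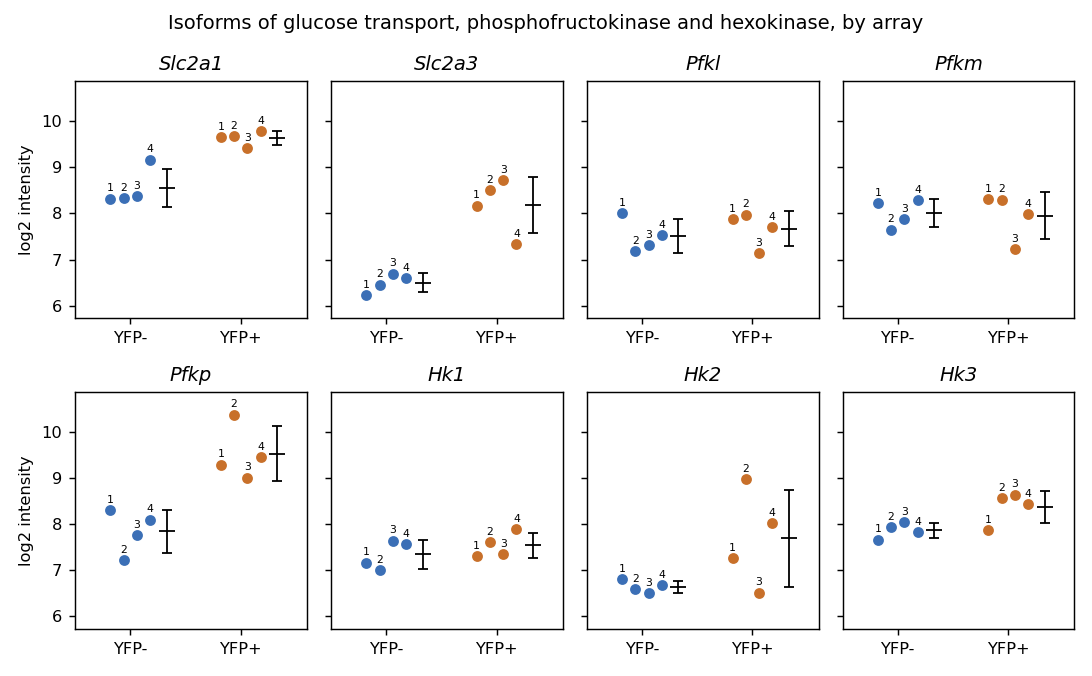
Log2 intensity of the glucose transporter, phosphofructokinase and hexokinase isoforms on each array (points, numbered by replicate), with the mean and SD over 4 arrays (bars). Slc2a1, Slc2a3 and Pfkp were higher on every YFP+ than on any YFP- array, Pfkl and Pfkm overlapped, and Hk2 ranged from 6.52 to 8.98 in YFP+ cells.

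The bifunctional PFKFB enzymes set the level of fructose 2,6-bisphosphate, which activates phosphofructokinase. Pfkfb3, the isoform linked to endothelial sprouting, read 8.98, 9.10, 8.98 and 8.90 on the YFP- and 8.83, 9.20, 8.99 and 8.52 on the YFP+ replicates, a difference of -0.10 (95% interval -0.44 to 0.23). Pfkfb1, the liver and muscle isoform, differed by -0.10 and Pfkfb4 by 0.18, with intervals of -0.69 to 0.49 and -0.10 to 0.46. The left-out Pfkfb2 probe set read 7.92 to 9.17 on the YFP- and 7.34 to 8.23 on the YFP+ arrays.

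Of the 9 genes from aldolase to pyruvate kinase, 1 was called and 3 had groups that did not overlap. Over all genes 1.27% were called higher and 8.62% did not overlap. Tpi1, which interconverts the triose phosphates, read 8.46, 8.22, 8.17 and 8.31 on the YFP- and 8.93, 8.67, 8.90 and 8.88 on the YFP+ replicates. Every YFP+ array was higher than every resident one, by a small margin, and the SD was 0.13 and 0.12. The difference was 0.55 (SE 0.12, 95% interval 0.29 to 0.81, limma adjusted p = 0.0494), just inside the threshold. It stayed called without YFP+ replicate 2 (0.0451) but not without YFP- replicates 1 to 4 (limma adjusted p = 0.0817, 0.162, 0.132 and 0.137) or YFP+ replicates 1, 3 or 4 (0.110, 0.0515 and 0.113). It was also lost with quantile normalization (0.0512), with trended and robust eBayes (0.103) and with same-numbered arrays treated as blocks (0.0883). Tpi1 was above background on no YFP- array and on 2 YFP+ arrays, and no fold is given.

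Aldoa, the aldolase of muscle and most other tissues, read 9.42, 9.14, 9.67 and 9.45 on the YFP- and 9.71, 10.18, 9.76 and 9.80 on the YFP+ replicates. The groups did not overlap and the gene was above background on all arrays, but its difference of 0.44 (SE 0.15) did not pass (limma adjusted p = 0.208). Eno1, the general enolase, likewise read 9.52, 9.60, 9.55 and 9.45 on the YFP- and 9.87, 9.62, 10.11 and 9.87 on the YFP+ replicates, a difference of 0.34 (limma adjusted p = 0.256). The margin between its groups was very narrow. The more restricted Aldoc and Eno2, known best from brain, differed by 0.24 and 0.11, below background on all arrays. Neither isoform contrast passed (exact p = 0.429 for Aldoc relative to Aldoa and 0.114 for Eno2 relative to Eno1).

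The remaining enzymes of the lower pathway overlapped between the groups. Pgam1, the phosphoglycerate mutase gene, differed by 0.35 (95% interval -0.004 to 0.70) and Gapdh by 0.11 (-0.15 to 0.38). Pkm, the gene of the pyruvate kinase of tissues other than liver and red cells, differed by -0.12 (-0.44 to 0.20), and Pgk1, the phosphoglycerate kinase gene, by -0.14 (-0.69 to 0.41). Gapdh and Pkm were above background on all 8 arrays, and Pgk1 was not above it on any. Several of these enzymes have processed pseudogenes in the mouse, and whether probes also bound their transcripts was not tested.

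Pyruvate is either reduced to lactate and exported or passed to mitochondria. Ldha, whose subunit favours lactate formation, differed by 0.16 (95% interval -0.18 to 0.51), and Ldhb, the heart-type subunit gene, by -0.07 (-0.51 to 0.38). Slc16a3, the gene of the lactate exporter MCT4, read 7.24, 7.20, 7.00 and 7.54 on the YFP- and 8.20, 8.19, 7.43 and 7.69 on the YFP+ replicates. YFP+ replicates 1 and 2 lay clearly above the resident arrays and replicate 3 among them, and the difference of 0.63 (SE 0.20) missed the threshold (limma adjusted p = 0.166, and 0.0442 without YFP+ replicate 3). Slc16a1, the gene of the more general MCT1, differed by 0.07 (95% interval -0.24 to 0.39), and the contrast of the transporters did not pass (0.56 in favour of Slc16a3, exact p = 0.171). Pdk1, a known HIF-1 target, encodes a kinase of the pyruvate dehydrogenase complex. It was the most variable gene among resident arrays, at 7.99, 8.09, 6.17 and 7.47. Its difference was 0.33 (95% interval -0.58 to 1.24).

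**Figure D3:**
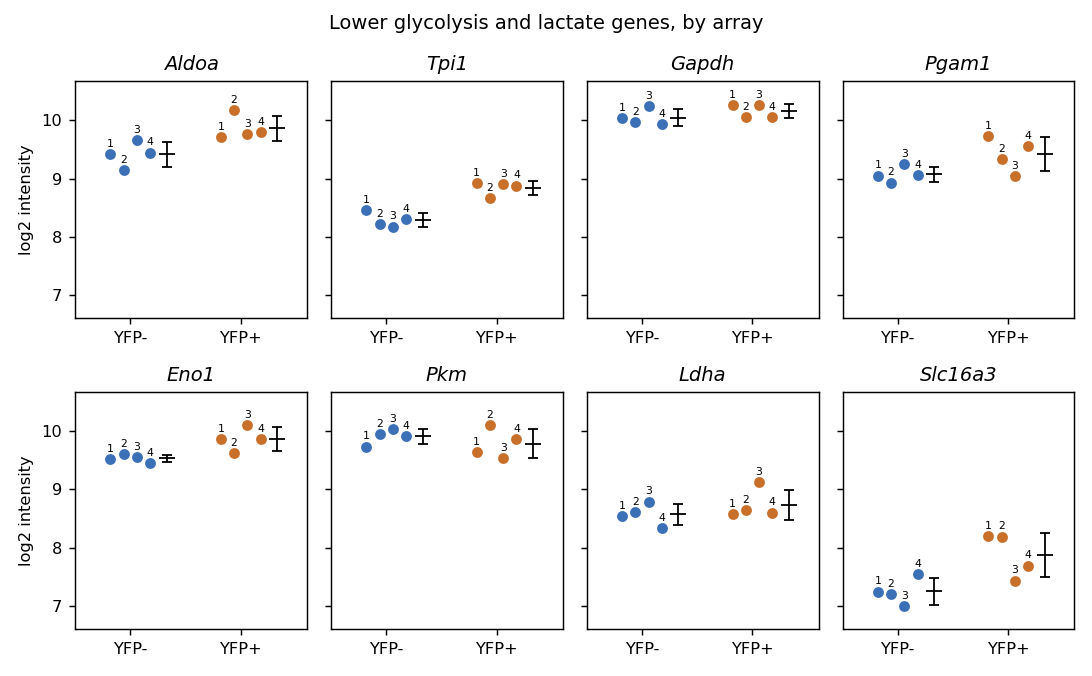
Log2 intensity of lower glycolysis and lactate genes on each array (points, numbered by replicate), with the mean and SD over 4 arrays. Tpi1 separated the groups by a small, even step, Aldoa and Eno1 did so with less room, and Gapdh, Pkm and Ldha overlapped.

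The oxygen-sensing genes gave no call among 5, nor an unadjusted p under 0.05 (limma). Epas1, the gene of the HIF-2alpha subunit typical of endothelium, was bright on all arrays and read 11.27, 11.31, 11.55 and 11.40 on the YFP- and 11.09, 10.86, 11.37 and 11.16 on the YFP+ replicates. Replicate 3 of the YFP+ group lay within the resident range and the others below it, and the difference was -0.26 (95% interval -0.56 to 0.04, limma adjusted p = 0.449). Hif1a differed by -0.08 (-0.37 to 0.21). The contrast of Epas1 with Hif1a was -0.18 (exact p = 0.314). Of the prolyl hydroxylase genes, Egln1 differed by -0.07 (-0.47 to 0.32) and Egln3, itself induced by hypoxia, by 0.05 (-0.45 to 0.56). The mean of both Egln3 probe sets differed by -0.13. The dimmer one, unlike the brighter, had no single matching gene number in its annotation, so whether it measures Egln3 is uncertain. Vhl, which encodes the subunit that recognises hydroxylated HIF, differed by 0.18 (-0.26 to 0.62).

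None of the 4 hypoxia response genes was called or had an unadjusted p under 0.05 either (limma). Ankrd37, a small ankyrin repeat gene strongly induced by HIF-1 in many cells, read 7.67, 7.81, 7.62 and 7.81 on the YFP- and 7.78, 7.56, 7.79 and 7.84 on the YFP+ replicates, with a difference of 0.01 (95% interval -0.24 to 0.27). It was below background on all arrays. Ndrg1, a stress-response gene, was bright on every array and read 11.32, 11.15, 11.09 and 11.60 on the YFP- and 11.31, 11.28, 11.09 and 11.55 on the YFP+ replicates. Its difference was 0.02 (-0.31 to 0.35). Bnip3, a mitophagy receptor gene, differed by -0.04 (-0.43 to 0.34). Adm, the gene of the vasodilator and endothelial barrier peptide adrenomedullin, was also above background throughout and differed by -0.18 (-0.64 to 0.27), with YFP+ values of 9.78, 9.23, 10.04 and 9.08 spread more widely than the resident 9.85, 9.73, 9.61 and 9.67.

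**Figure D4:**
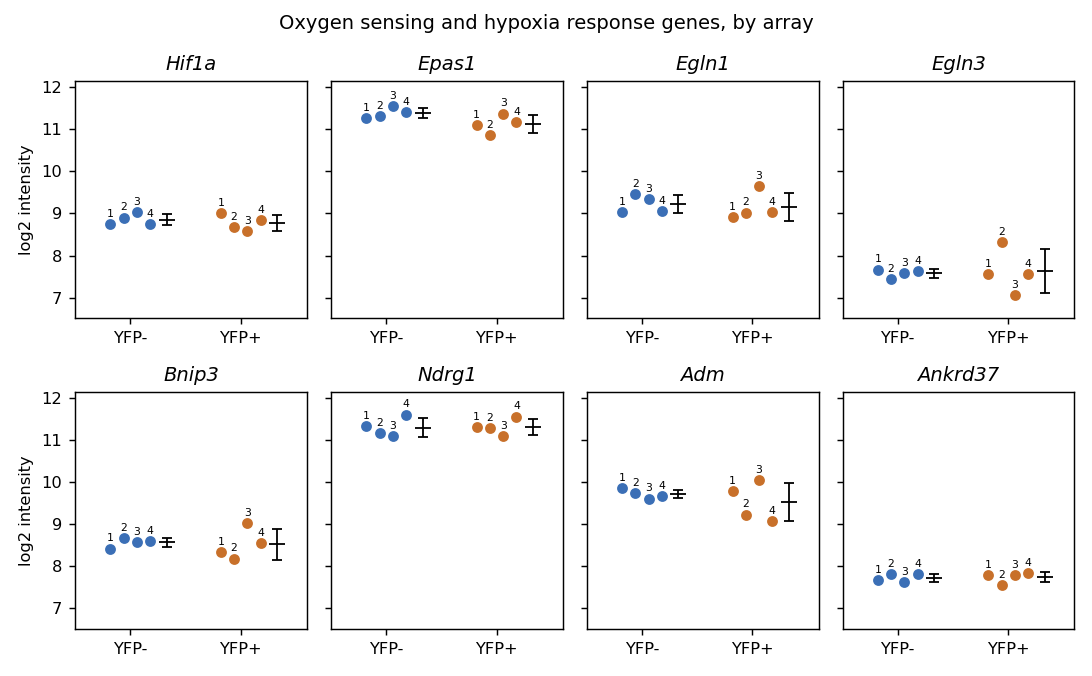
Log2 intensity of oxygen-sensing and hypoxia response genes on each array (points, numbered by replicate), with the mean and SD over 4 arrays. The groups overlapped for every gene shown, and no 95% interval of a difference excluded 0.

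The letters that HIF complexes bind were looked up in the 250 bases before the annotated starts of these genes (RefSeq, GRCm38.p6). HIF is known to bind ACGTG and, less strictly, GCGTG; both were searched on both strands, and ACGTG is also part of the palindromic box bound by MYC-type factors. Of the 36 genes, 33 had an entry, and 18 of these (54.55%) held ACGTG before at least 1 start, compared with 20.3% of 15548 tested genes with an entry. The shares for GCGTG were 63.6% and 38.0%. The windows were also richer in G and C, at 59.15% against 53.22% for all starts. By start, ACGTG stood before 43.1% of the 51 starts of these genes and before 16.6% of all 32851. Of the called genes, Slc2a1 held ACGTG, Pfkp held GCGTG alone, Tpi1 held neither and Slc2a3 had no entry, while Ldha, Pgk1, Hk2, Egln3, Bnip3 and Ankrd37, none of which was called, all held ACGTG. A match in this window is a description of letters, not a bound site.

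Shown are the windows of Slc2a1 and Pfkp, which rose, of Pfkl, which was not called, and of Ldha and Bnip3, textbook HIF targets whose intervals included 0. Pfkm, also not called, is not shown and held ACGTG before some of its starts. For Ldha the upstream start is shown, and the window of its other start held no ACGTG. Each printed window runs 5′ to 3′ and ends at the base before the annotated start. Capitals mark ACGTG or GCGTG on either strand.
Slc2a1, chr4:119108495-119108744, plus strand: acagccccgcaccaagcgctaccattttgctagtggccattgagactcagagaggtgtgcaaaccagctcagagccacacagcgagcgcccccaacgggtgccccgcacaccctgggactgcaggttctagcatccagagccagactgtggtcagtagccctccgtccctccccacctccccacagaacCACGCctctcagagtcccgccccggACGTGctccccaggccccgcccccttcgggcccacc
Pfkp, chr13:6648772-6649021, minus strand: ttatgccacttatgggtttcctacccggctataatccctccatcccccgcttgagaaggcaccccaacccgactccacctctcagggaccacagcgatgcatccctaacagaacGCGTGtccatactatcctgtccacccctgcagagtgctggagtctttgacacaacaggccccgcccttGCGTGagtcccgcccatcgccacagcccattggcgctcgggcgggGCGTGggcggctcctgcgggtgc
Pfkl, chr10:78009808-78010057, minus strand: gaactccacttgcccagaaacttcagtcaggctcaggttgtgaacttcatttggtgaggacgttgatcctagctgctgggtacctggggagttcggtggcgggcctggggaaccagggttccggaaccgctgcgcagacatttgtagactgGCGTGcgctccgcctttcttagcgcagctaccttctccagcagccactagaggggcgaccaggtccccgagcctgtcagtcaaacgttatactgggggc
Ldha, chr7:46845554-46845803, plus strand: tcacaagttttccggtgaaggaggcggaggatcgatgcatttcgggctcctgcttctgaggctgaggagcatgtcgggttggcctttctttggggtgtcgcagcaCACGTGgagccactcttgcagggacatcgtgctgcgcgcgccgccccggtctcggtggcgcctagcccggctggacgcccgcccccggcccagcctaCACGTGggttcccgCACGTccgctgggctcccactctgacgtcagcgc
Bnip3, chr7:138909507-138909756, minus strand: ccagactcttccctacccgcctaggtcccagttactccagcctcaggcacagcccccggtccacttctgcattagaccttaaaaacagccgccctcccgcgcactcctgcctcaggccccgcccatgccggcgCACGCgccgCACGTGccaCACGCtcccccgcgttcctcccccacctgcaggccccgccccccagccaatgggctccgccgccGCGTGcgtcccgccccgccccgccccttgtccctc

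Neighbouring pathways gave single calls. Over all genes 1.27% were called higher, and 13.5% had an unadjusted p under 0.05 in either direction (limma). Of 18 measured genes of other isoforms and carriers of the same steps, 1 was called higher, Slc2a6 (above). Of 17 genes of gluconeogenesis and glycogen, 1 was called higher: Pygl, the liver-type glycogen phosphorylase, read 6.42, 6.83, 6.58 and 6.75 on the YFP- and 8.30, 9.10, 9.12 and 7.96 on the YFP+ replicates (difference 1.97, SE 0.25, limma adjusted p = 0.00596). It kept its call without each array in turn (limma adjusted p up to 0.0259). Of 8 measured pentose phosphate genes, 1 was called, Taldo1, the transaldolase gene, with a difference of 1.30 (limma adjusted p = 0.0335); like Slc2a1, it was highest among resident arrays on YFP- replicate 4 (9.23 against 8.20 to 8.40). A further list of 12 genes held the pyruvate dehydrogenase complex, its kinases and phosphatases, and the mitochondrial pyruvate carrier. None of these was called, and 2 had an unadjusted p under 0.05 (limma). They were Mpc2, a pyruvate carrier subunit (0.44, limma adjusted p = 0.125), and Pdk3 (1.03, limma adjusted p = 0.246).

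Wider hypoxia lists held differences in both directions. Of 25 measured further HIF targets, 12 had positive and 13 negative differences, with a median of -0.01. An unadjusted limma p under 0.05 was reached by 7, of which 4 were positive and 3 negative, against 13.5% of all genes. The groups did not overlap for 6, against 8.62% of all genes, and 1 was called, where 1.27% of all genes were called higher. The 1 that was called was Vegfa, the endothelial growth factor gene, which read 8.81, 8.73, 8.76 and 8.62 on the YFP- and 9.59, 9.19, 9.25 and 9.72 on the YFP+ replicates (difference 0.71, at least 1.30-fold higher, limma adjusted p = 0.0407). The others nearest the threshold, chosen after their values were seen, went both ways: Ddit4, a stress-induced inhibitor of mTOR, had a difference of 1.14 (limma adjusted p = 0.0533), and Flt1, a VEGF receptor gene, one of -0.57 (0.0663). Nos3, the endothelial nitric oxide synthase gene, differed by -0.56 (limma adjusted p = 0.137) and Plod2, a collagen lysyl hydroxylase gene, by -0.68 (0.161). Flt1 and Kdr were also on the pan-endothelial list, where all 13 measured genes had negative differences (below). Of 12 further genes of oxygen sensing none was called and 4 had an unadjusted p under 0.05; the lowest limma adjusted p-values were 0.158 for Cited2, which competes with HIF for its coactivator (difference 1.33), and 0.213 for Rbx1 (0.36). Among 14 regulators of glycolysis Ppargc1a, a coactivator of mitochondrial genes, was called (1.45, limma adjusted p = 0.0422). Apart from Pygl, these single calls were also lost without some arrays: Slc2a6 without any of the YFP- arrays or YFP+ replicate 1, Taldo1 without YFP- replicates 1 to 3 or YFP+ replicates 1, 2 or 4, Vegfa without any of the YFP- arrays or YFP+ replicates 1 or 4, and Ppargc1a without any of the YFP- arrays or YFP+ replicates 3 or 4. The highest limma adjusted p-values without 1 array were 0.0929 for Slc2a6, 0.120 for Taldo1, 0.130 for Vegfa and 0.142 for Ppargc1a. Subtraction of the negative control median also ended the calls of Slc2a6 (0.0527), Taldo1 (0.122) and Ppargc1a (0.160), and quantile normalization that of Ppargc1a (0.0512). Treating same-numbered arrays as blocks ended those of Taldo1 (0.0591), Vegfa (0.0846) and Ppargc1a (0.0657).

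Markers of other cells differed on the same arrays, where 1.27% of all genes were called higher and 0.336% lower. All 14 pan-leukocyte markers had positive differences and 6 were called, and their mean log2 intensity was 7.22 to 7.58 on the YFP- arrays and 8.92, 10.09, 8.39 and 9.09 on YFP+ replicates 1 to 4. Ptprc, the CD45 gene itself, read 6.79 to 7.64 on the YFP- and 9.06, 10.08, 7.22 and 8.82 on the YFP+ replicates. The 9 mast cell and basophil markers had 3 calls and means of 9.44, 10.66, 8.43 and 9.10 on the YFP+ arrays against 7.71 to 7.85. Of 14 monocyte and macrophage markers 5 were called, and of 10 neutrophil markers 1, with group means of 7.46 to 8.05 and 7.11 to 7.69 on the YFP+ arrays against 6.87 to 7.05 and 6.66 to 6.81.

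Markers of other lineages were also compared. The 10 measured platelet markers had 3 calls and means of 8.58, 8.48, 8.49 and 8.34 on the YFP+ against 7.46 to 7.51 on the YFP- arrays. The 10 bile duct markers had 6 calls and means of 9.51, 8.83, 9.13 and 9.49 against 7.96 to 8.39, and the 12 hepatocyte markers 3 calls and means of 8.19, 8.77, 7.89 and 8.50 against 7.58 to 7.82. None of the 12 lymphocyte, 6 erythroid and 10 stellate cell markers was called (6, 1 and 1 had an unadjusted p under 0.05, limma), with means of 6.82 to 7.22, 7.05 to 7.43 and 7.37 to 7.70 on the YFP+ arrays against 6.65 to 6.78, 7.11 to 7.24 and 7.21 to 7.35. No marker gene is listed at 0. Pan-endothelial means were lower in YFP+ cells, at 11.07 to 11.15 on the YFP- arrays and 10.83, 10.54, 10.92 and 10.74 on the YFP+ replicates. All 13 such genes had negative differences, 9 had an unadjusted p under 0.05 (limma), and the groups did not overlap for 8. Of these genes 1, Tek, was called lower (limma adjusted p = 0.0224, and up to 0.0802 without any 1 of the YFP- arrays). Sinusoidal means were 11.55 to 11.65 on the YFP- and 11.19 to 11.40 on the YFP+ arrays. All 10 sinusoidal differences were negative, with no call, 4 unadjusted p-values under 0.05 (limma) and 5 genes without overlap. Over all genes 13.5% had such a p, in either direction, and 8.62% did not overlap.

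The order of the YFP+ arrays differed among the called genes. Pfkp, and with it Hk2, was highest on replicate 2 and lowest on replicate 3, as the pan-leukocyte, monocyte and macrophage, mast cell and basophil, and hepatocyte means were. Slc2a3 was highest on replicate 3, where those means were lowest, and lowest on replicate 4, where the platelet and neutrophil means were lowest. Slc2a1 was highest on replicate 4 and lowest on replicate 3, as the stellate cell mean was, although that mean was nearly equal on replicates 1 and 3 (7.376 and 7.372). Tpi1 was highest on replicate 1 and lowest on replicate 2, as the bile duct mean was. Slc2a1 and Tpi1 varied by 0.36 and 0.26 across the YFP+ arrays. With 4 arrays a group and many lists, a gene can share its order with some list by chance. No correlation was computed, and the part of other cell types in these differences was not tested.

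**Figure D5:**
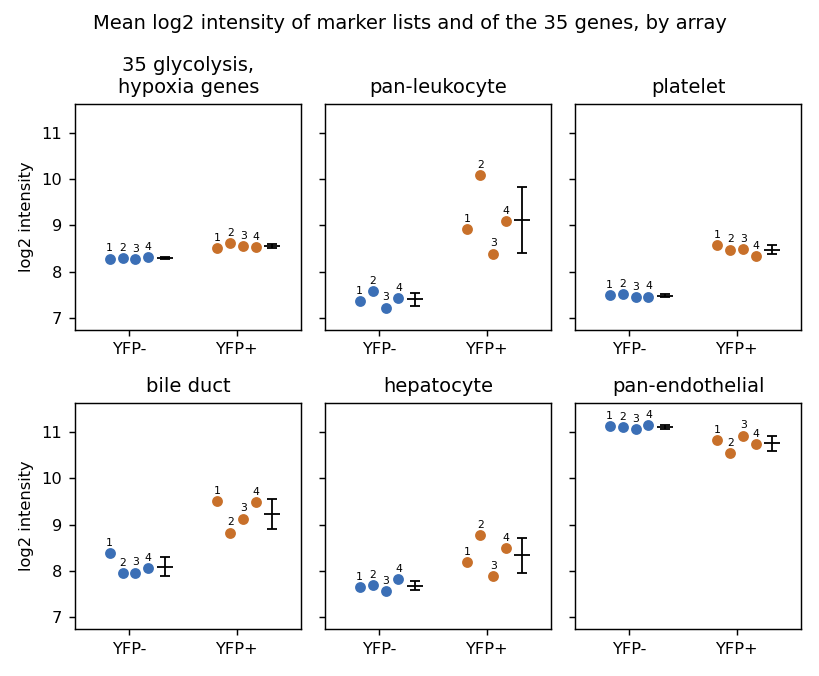
Mean log2 intensity of marker lists and of the 35 glycolysis and hypoxia genes on each array (points, numbered by replicate), with the mean and SD over 4 arrays. Leukocyte, platelet, bile duct and hepatocyte means were higher on every YFP+ array than on any YFP- array, and endothelial means were lower; among the lists plotted, leukocyte means were the most spread in YFP+ cells.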

How the data were processed

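Each of 8 samples of sorted liver endothelial cells was run on its own Affymetrix array after 100 pg of RNA had been labelled by the 3' IVT Pico method, per the labels' protocols. The intensity values deposited by the authors are normalized and linear, and their quartiles are nearly equal across arrays; array model, summarization, background correction and software were not given in the sources used here. Per the file headers, one table also holds the authors' group means, their fold (a ratio of means) and an unadjusted p-value from an unnamed test; none of these was used.

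Probe sets with 1 symbol were kept (21371 of 22203), the brightest was taken for each gene, and log2 values were compared with limma 3.58.1 (lmFit, eBayes, R 4.3.3) and Benjamini-Hochberg adjustment over 21160 genes at a threshold of 0.05. Of 7194 annotations cut short in the file, the incomplete last entry was ignored. A gene counted as above background on an array where it exceeded the 95th percentile of 5049 negative control entries. Isoform pairs were compared by exact permutation tests of per-array differences, adjusted over 15 pairs; a pair with Pfkfb2 was left out. The tests were first run on simulated data with known answers. The limma fit recovered 16% of simulated log2 changes of 0.5, 70% of changes of 1 and 96% of changes of 2, with 11 false calls among 152. The number of arrays limits the precision.

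Samples were grouped by their titles. Separate animals are not documented beyond the term biological replicate, so p-values reflect only the variation among these samples, which may be technical. Same-numbered arrays were not treated as pairs, since no label says what a number marks. The authors' column headers also number both groups alike, again without saying what a number marks. Deviations of same-numbered arrays correlated by 0.159, 0.0194, 0.0999 and 0.0781, against -0.130 to 0.0666 for arrays of different numbers. These values do not settle whether same-numbered arrays belong together, and a replicate block was run as an alternative.

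The genes and lists were chosen with earlier results of these data known, so their calls are no independent evidence. Named outside the set were called genes of each pathway list or otherwise the 2 with the smallest adjusted p; Ddit4, Flt1, Nos3, Plod2 and Slc2a2 were named after their values were seen. Promoter windows came from RefSeq (GRCm38.p6). Alternatives were other normalizations, subtraction of the negative control median (floor 20 units), a filter on dim genes, averaged probe sets, trended and robust eBayes, array weights, a replicate block and each array left out.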

Additional observations from a re-analysis of the deposited data

Results flagged for a closer look

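Of 70 sets of 4 arrays (35 genes in each group), 3 held 1 array far from the others by Dixon's criterion, which chance alone meets in about 1 of 20. Slc2a1 read 9.16 on YFP- replicate 4, against 8.32 to 8.37 on the other resident arrays. Ldha read 9.12 on YFP+ replicate 3, against 8.57 to 8.64 on the other YFP+ arrays. Egln1 read 9.65 on YFP+ replicate 3, against 8.91 to 9.03. YFP+ replicate 3 is the array with the lowest correlation to its group (0.901).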

How the results depend on the processing

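The count of 4 higher genes was 2 with the replicate block, 1 after negative control subtraction and 1 with dim genes left out (11 of the 35 genes and 3364 of all genes then tested), and 0 to 5 with 1 array left out; no gene was called lower under any of the 16 alternatives. Of 61 values of the 4 called genes under alternatives none turned sign and 27 no longer passed. Of the 31 uncalled genes, 29 were called under no alternative. The median difference of 0.16 was 0.30 after subtraction, 0.10 with array weights and 0.090 to 0.17 with 1 array left out. The 2 isoform pairs whose groups did not overlap became 2 to 5 with 1 array left out, with 4 without YFP+ replicate 2 and 5 without YFP+ replicate 3; with the replicate block 5 pairs had 1 sign in all 4 numbers, where the smallest possible p is 0.125. With the block the limma adjusted p was 0.0788 for Pfkp, 0.0883 for Tpi1, 0.0591 for Taldo1, 0.0846 for Vegfa and 0.0657 for Ppargc1a, all called without it. The block moved the calls over all genes from 340 to 241, subtraction to 259, array weights to 695 and leaving 1 array out to 115 to 636; 7 of 8 arrays correlated best with the array of their own number. The causes were not tested.

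Uncalled differences whose sign turned were Pfkm with array weights (0.051), Pfkfb1, Pgk1, Ldhb after subtraction (0.19, 0.25 and 0.037), Aldoc relative to Aldoa after subtraction (0.49), Bnip3 with cyclic loess (0.00096), Ankrd37 with quantile normalization (-0.011), Pfkfb3 relative to Pfkfb1 with quantile normalization (0.035) and cyclic loess (0.057), and, with the mean of probe sets, Egln3 (-0.13) and Egln3 relative to Egln1 (-0.061). With 1 array left out the ranges that crossed 0 were -0.18 to 0.19 for Pfkm, -0.32 to 0.11 for Pfkfb1, -0.21 to 0.018 for Pfkfb3, -0.28 to 0.094 for Pgk1, -0.20 to 0.083 for Ldhb, -0.025 to 0.17 for Slc16a1, -0.091 to 0.55 for Pdk1, -0.24 to 0.0075 for Egln1, -0.18 to 0.24 for Egln3, -0.21 to 0.069 for Bnip3, -0.063 to 0.12 for Ndrg1, -0.022 to 0.074 for Ankrd37, -0.32 to 0.23 for Pfkfb3 relative to Pfkfb1 and -0.15 to 0.48 for Egln3 relative to Egln1. Signal over background limits the 18 genes that were below the threshold on all arrays.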
